A study of Mus musculus with 4 samples.

Results

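The genes described here are the cytosolic aminoacyl-tRNA synthetases and other genes of the response driven by the transcription factor ATF4, measured in embryonic fibroblasts of the mouse, which are cultured connective tissue cells. The list names 41 genes, 20 synthetases and 21 others, and its members were taken by gene symbol. Of these, 39 were found in the platform annotation among 12393 named genes, namely 18 synthetases and all 21 others; Dars and Mars were not found and are not analysed here. The 39 genes had 73 probe sets with a single gene symbol, and where a gene had several, the one brightest on average stands for it. All 18 synthetases and 19 of the other genes reached the floor of 7.53, the median of all log2 values in the table, in at least 1 array. Slc7a1 and Slc7a11 stayed below it in every array, and counts and medians leave them out.

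There were 4 arrays and 4 groups, 1 array each. They were total RNA labelled Npm1+/- (heterozygote), total RNA labelled Npm1+/+ (wild type), ribosome-bound RNA labelled Npm1+/-, and ribosome-bound RNA labelled Npm1+/+; ribosome-bound RNA, separated on a sucrose gradient, is called polysome RNA. All 4 carry the strain label C57/BJ6, and the series' design text speaks of Npm1 deletion and of its effect on which RNAs are translated. How the allele was made, the number of embryos, and whether total and polysome RNA came from the same cultures are not given in the sources used here. With 1 array per group no value has replicate error and no test was possible.

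Npm1, which encodes the nucleolar protein nucleophosmin, read 11.96 in total RNA under the heterozygote label and 11.91 under the wild-type label, and 12.84 and 12.93 in polysome RNA in the same order of labels. It did not follow the genotype labels, so the directions given here compare libraries as labelled. Whether its probe set lies in the inactivated part of the gene was not tested. All 10 fibroblast markers examined (among them Col1a1, Vim and Pdgfrb) reached the floor in all 4 arrays. None of 4 epithelial markers did, and of 4 endothelial markers 1 reached it in each total library and none in the polysome libraries. As a measure of technical spread, the SD of the disagreement between the brightest pair of probe sets of a gene was computed over 2700 genes. It was 0.32 in total and 0.28 in polysome RNA for differences between the genotype labels, 0.24 and 0.28 for polysome minus total RNA under the heterozygote and wild-type labels, and 0.22 for the difference between these last differences.

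Aminoacyl-tRNA synthetases attach each amino acid to its transfer RNA and so supply the ribosome. They fall into 2 structural classes, I and II, and in mammals several of them sit together in a multi-synthetase complex held by scaffold proteins. When amino acids run short or unfolded proteins accumulate, kinases phosphorylate the initiation factor eIF2, which slows translation of most mRNAs but raises that of the Atf4 mRNA through short upstream reading frames. ATF4, paired with C/EBP proteins, then switches on genes for amino acid synthesis and uptake, many synthetase genes, and feedback and cell death regulators, through a shared DNA element.

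That element joins the 2 gene groups, so it was searched for in the promoters as the 8 letters TGATGNAA, on both strands (TTNCATCA where it lies on the strand opposite to the gene). RefSeq promoter windows (GRCm38.p6, 250 bases before to 50 after the start) were held for 30 of the 39 genes, in 33 windows. The letters were found in 5 of 11 synthetase windows (Aars, Gars, Iars, Tars and Yars) and in 5 of 22 windows of the other genes (Asns, Chac1, Nupr1, Slc7a11 and Trib3), against 1304 of all 32851 windows, or 3.97%. A match of letters is a description and does not show that the factor binds. The stretches below carry the matches that lie before the start. Each is written along the gene's own strand, with the matched letters in capitals.
Aars (chr8:111033712-111033771, plus strand): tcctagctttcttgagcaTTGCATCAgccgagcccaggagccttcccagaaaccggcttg
Tars (chr15:11399659-11399718, minus strand): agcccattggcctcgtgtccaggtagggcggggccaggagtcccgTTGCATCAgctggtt
Gars (chr6:55037941-55038000, plus strand): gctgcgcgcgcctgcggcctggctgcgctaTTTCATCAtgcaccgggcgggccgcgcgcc
Asns (chr6:7693210-7693269, minus strand): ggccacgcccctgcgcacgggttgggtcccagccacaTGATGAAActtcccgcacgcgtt
Nupr1 (chr7:126625541-126625600, minus strand): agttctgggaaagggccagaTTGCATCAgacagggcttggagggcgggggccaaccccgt
Chac1 (chr2:119351032-119351091, plus strand): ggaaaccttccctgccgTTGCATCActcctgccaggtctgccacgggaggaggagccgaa
Slc7a11 (chr3:50443614-50443703, minus strand): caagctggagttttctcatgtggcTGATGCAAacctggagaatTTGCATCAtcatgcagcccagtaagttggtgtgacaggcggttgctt
The same letters, TTGCATCA, stand in the windows of Aars, Iars, Tars and Nupr1, which were lower under the heterozygote label. They also stand in those of Slc7a11, which stayed below the floor, and of Chac1, which was higher. Read on the other strand, as TGATGCAA, they stand in the window of Yars, which was at -0.01 in total and -0.18 in polysome RNA. Relative to the median gene Chac1 was at 0.28 in total and 0.21 in polysome RNA, within the spread between probe sets.

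Between the genotype labels in total RNA, most synthetase genes were lower in the library labelled heterozygote. Of 18 synthetases 16 were below 0, where 33.6% of all 7179 genes that reached the floor were, and 8 (44.4%) were at least 1.5-fold lower, where 6.23% of all genes were. None reached 1.5-fold in the upward direction, against 7.42% of all genes, or 2-fold, against 0.237%. The 2-fold mark downwards was passed by 3, against 1.49%. The median log2 difference was -0.47 over the synthetases and 0.19 over all genes, so relative to the median gene the synthetases stood at -0.66. On that scale 9 of 18 were at least 1.5-fold lower, against 11.3% of all genes.

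The lowest 3 values were those of synthetases of the multi-synthetase complex. Lars, which charges leucine tRNA, read 9.26 under the heterozygote label and 10.47 under the wild-type label, a log2 difference of -1.21 (2.31-fold lower). Eprs, a fused enzyme for glutamate and proline, read 9.66 in the heterozygote library and 10.80 in the wild-type library, a difference of -1.14 (2.20-fold lower). Qars, the glutamine enzyme, read 9.55 and 10.64 in the same order of labels (-1.09, 2.13-fold lower). These 3 were the members past 2-fold, and each exceeded the spread between probe sets of a gene more than 3 times. Rars, for arginine, followed with 10.10 in the heterozygote library and 10.75 in the wild-type library (-0.65), and Iars, for isoleucine, with 10.14 and 10.71 (-0.57). Kars, for lysine, differed by -0.21, within the spread between probe sets, but relative to the median gene it came to -0.40, past that spread. Over the 6 measured complex synthetases the median was -0.87, and over the 12 outside it -0.31.

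Outside the complex, Aars, for alanine, stood lowest, with 10.73 in the heterozygote library and 11.71 in the wild-type library (-0.97, 1.97-fold lower). Cars, for cysteine, read 9.26 under the heterozygote and 9.98 under the wild-type label (-0.71). Vars, for valine, read 9.27 and 9.94 in that order (-0.67), and Tars, for threonine, 10.08 and 10.75 (-0.67). The remaining enzymes lay nearer 0. Farsb (-0.38) and Nars (-0.35) exceeded the spread between probe sets slightly, whereas Gars (-0.27), Sars (-0.22), Farsa (-0.01) and Yars (-0.01) did not. Relative to the median gene Gars (-0.46) and Sars (-0.41) did exceed it, and Farsa (-0.20) and Yars (-0.19) did not. Farsa and Farsb encode the subunits of a single enzyme, the phenylalanine synthetase. Wars (0.11) and Hars (0.35), for tryptophan and histidine, were above 0, and relative to the median gene only Hars remained so, at 0.16. By structural class the medians were -0.66 over 8 class I and -0.27 over 9 class II enzymes, with the fused Eprs counted in neither. Lars, Qars, Rars and Iars of the complex are class I and only Kars is class II. The class and complex groupings therefore overlap, and their parts were not separated.

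Polysome RNA, measured on the other 2 arrays, gave much the same order of synthetases. Of 18, 17 were below 0 (36.6% of all genes), 8 were at least 1.5-fold lower (5.86% of all genes) and 2 at least 2-fold lower (1.17%). None reached 1.5-fold (2.08%) or 2-fold (0.0836%) in the upward direction. The median was -0.43, and -0.53 relative to the median gene, where 9 were at least 1.5-fold lower against 8.29% of all genes. Eprs read 9.97 under the heterozygote label and 11.15 under the wild-type label (-1.18, 2.27-fold lower). Lars read 9.66 in the heterozygote library and 10.72 in the wild-type library (-1.06, 2.09-fold lower). Both passed 2-fold here as they did in total RNA, while Qars, with 9.69 and 10.47 in the same order, came to -0.79. Aars read 11.03 under the heterozygote and 11.95 under the wild-type label (-0.92). Vars, with 9.55 in the heterozygote and 10.32 in the wild-type library, was at -0.78. Cars, with 9.49 and 10.25 in that order, was at -0.76. Iars (10.34 under the heterozygote and 11.00 under the wild-type label, -0.66) and Tars (10.33 under the heterozygote and 10.98 under the wild-type label, -0.65) were past 1.5-fold, and Rars (10.29 under the heterozygote and 10.87 under the wild-type label, -0.58) fell just short of it. In both RNAs 7 synthetases were at least 1.5-fold lower, namely Aars, Cars, Eprs, Lars, Qars, Tars and Vars, where 4.74% of all genes were. Relative to the median gene the same 9 passed in both, these and Iars and Rars, where 7.45% of all genes did.

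**Figure D1:**
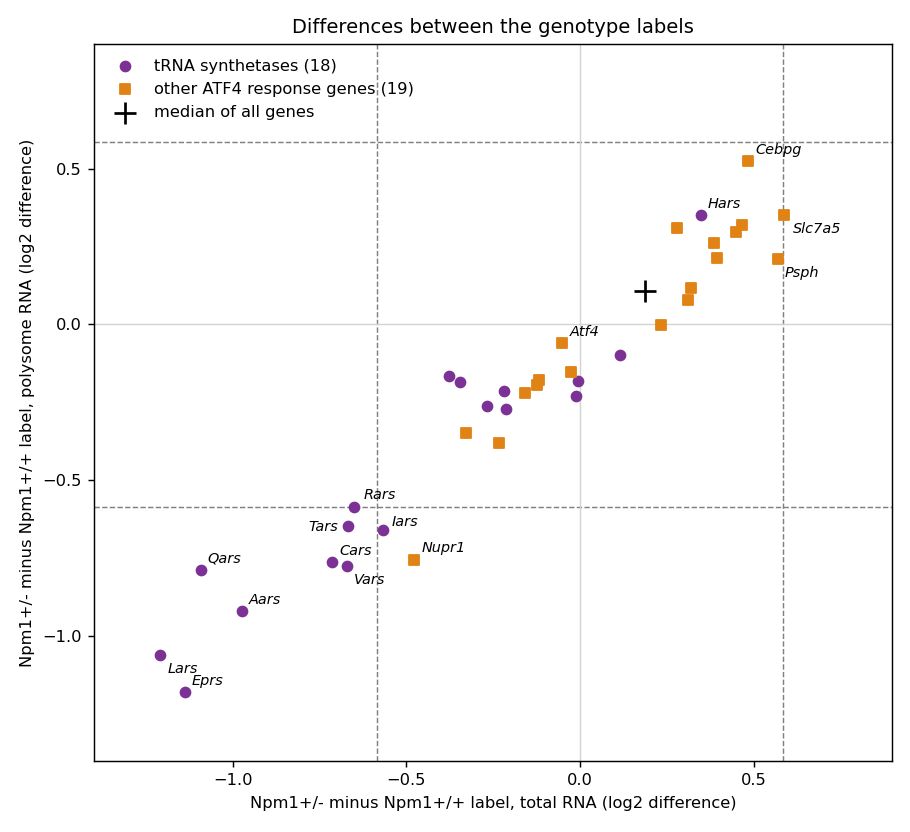
Log2 difference of each gene between the heterozygote and wild-type labels in total RNA (x axis) and in polysome RNA (y axis), for 18 tRNA synthetases (circles) and 19 other ATF4 response genes (squares), 1 array per group. Dashed lines mark 1.5-fold and the cross marks the median of all genes, at 0.19 and 0.11; Lars, Eprs, Qars and Aars lie farthest to the lower left, and Slc7a5, Psph and Cebpg to the upper right.

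Dimmer probe sets of the leading synthetases mostly gave the same direction. The other probe sets of Eprs were at -1.35 and -1.75 in total RNA and at -1.22 and -1.34 in polysome RNA, and that of Aars was at -0.98 and -1.18. The second probe set of Iars was at -0.70 and -0.52. Qars was less even: its brightest probe set is of the _x_at type, some of whose probes may bind other transcripts, and its others gave -0.81, -0.44 and, far below the floor, -0.03 in total RNA. The dimmer probe set of Cars, with all 4 values below the floor, gave -0.23 and -0.05. Of all 32 synthetase probe sets that reached the floor, 27 were below 0 in total RNA and 31 in polysome RNA, and Farsb, Wars and Hars had probe sets of mixed sign in 1 of the RNAs.

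Across the 4 arrays, 14 of 18 synthetases had both heterozygote-labelled values below both wild-type-labelled values, where 20.9% of all genes did. The exceptions were Gars, Kars, Wars and Hars, and Hars alone lay the other way, with both heterozygote-labelled values above, as 43.8% of all genes did. Total and polysome libraries of a label may come from the same culture, so these are not independent measurements of a genotype. A measure of RNA integrity, the difference between the 3-prime and 5-prime control probe sets, lay between 0.01 and 0.06 for beta-actin and between -0.09 and 0.12 for Gapdh in the 4 arrays. For the transferrin receptor control it was 1.47 and 1.71 in the heterozygote-labelled total and polysome libraries and 1.72 and 1.58 in the wild-type-labelled ones, from probe sets below the floor. For the pyruvate carboxylase control it was 0.27 and 0.11 in the heterozygote-labelled total and polysome libraries. In the wild-type-labelled ones it was 0.49 and 0.25, so it was lower under the heterozygote label in both RNAs. Of the values behind it, only the wild-type-labelled 3-prime ones reached the floor, at 7.65 in total and 7.56 in polysome RNA. All 14 macrophage markers examined were above 0 in total RNA and 11 of 14 in polysome RNA. Their median was 0.18 in total RNA, where the median gene was at 0.19, and 0.185 in polysome RNA, where it was at 0.11. Of the 10 fibroblast markers 7 were below 0 in each RNA, where 33.6% and 36.6% of all genes were. The fibroblast medians were -0.16 in total and -0.09 in polysome RNA. The part of these measures in the result was not tested.

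**Figure D2:**
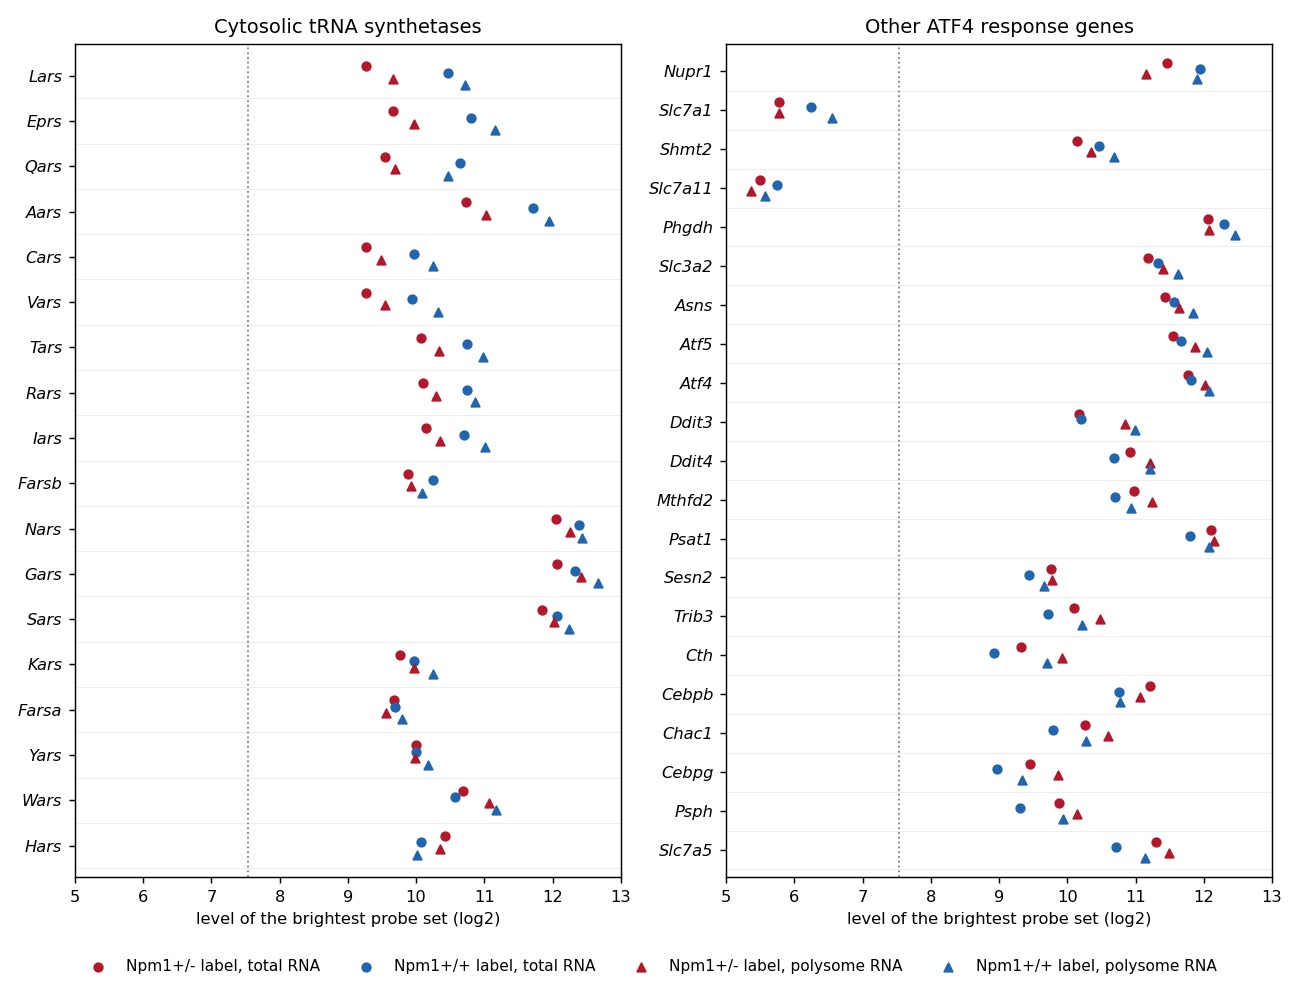
Level of the brightest probe set (log2, x axis) of each of the 39 genes in the 4 arrays, with synthetases on the left and other ATF4 response genes on the right, ordered by the genotype label difference in total RNA. Circles are total and triangles polysome RNA, red the heterozygote and blue the wild-type label, and the dotted line is the floor of 7.53; from Lars down to Iars the red symbols lie left of the blue ones, and Slc7a1 and Slc7a11 lie left of the floor.

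The other ATF4 response genes did not follow the synthetases. In total RNA 8 of 19 were below 0, 1 was at least 1.5-fold higher and none was lower by as much, with a median of 0.28 that lay 0.09 above the median gene. In polysome RNA 9 of 19 were below 0, 1 was at least 1.5-fold lower and none higher, with a median of 0.08, which is -0.03 relative to the median gene. Against the shares of all genes given above, these counts do not set the group apart. Relative to the median gene the split in total RNA turned from 1 higher (Slc7a5) and none lower to 1 lower (Nupr1) and none higher. The difference between the synthetases and this group was not tested.

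Among the transcription factors, Atf4 itself was nearly level between the genotype labels. It read 11.77 in total RNA under the heterozygote label and 11.82 under the wild-type label (-0.05), and 12.02 and 12.08 in polysome RNA in the same order (-0.06). Its second probe set, of the _x_at kind, gave 0.04 and 0.22. Ddit3, which encodes the stress factor CHOP, read 10.17 under the heterozygote and 10.19 under the wild-type label in total RNA (-0.03), and 10.84 and 11.00 in polysome RNA (-0.15). Atf5, a relative of ATF4, was also close to 0 (-0.12 in total and -0.18 in polysome RNA). In the deposited values only the C/EBP genes, whose products pair with ATF4, were past the spread between probe sets. Cebpg was at 0.48 in total and 0.53 in polysome RNA, and Cebpb at 0.45 and 0.30. Relative to the median gene, Cebpg came to 0.30 and 0.42 and Cebpb to 0.26 and 0.19. Of these, only Cebpg in polysome RNA exceeded the spread. On that scale Atf5 came to -0.31 and -0.29, just past the spread in polysome RNA.

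The enzymes divided by gene. Psph, the last step of serine synthesis, read 9.87 in total RNA under the heterozygote label and 9.30 under the wild-type label (0.57), and 10.14 and 9.93 in polysome RNA (0.21). Phgdh, the first step of that pathway, was lower (-0.23 and -0.38), and Psat1, the step between them, was at 0.31 and 0.08. The second Psat1 probe set gave -0.04 and 0.15, so its direction in total RNA depends on the probe set. Shmt2 and Mthfd2 act one after the other in mitochondrial one-carbon metabolism, and they also differed in sign, Shmt2 at -0.33 and -0.35 and Mthfd2 at 0.28 and 0.31. Cth, which makes cysteine from cystathionine, read 9.32 in total RNA under the heterozygote label and 8.92 under the wild-type label (0.39), and 9.92 and 9.71 in polysome RNA (0.21). Asns, the asparagine synthetase, a standard reporter of ATF4 activity, was at -0.12 and -0.20, within the spread between probe sets. Relative to the median gene Asns came to -0.31 and -0.30, just past the spread in polysome RNA.

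Of the stress effectors, Nupr1 was the member lowest under the heterozygote label. This small chromatin-associated stress protein, measured by an _x_at probe set, read 11.47 in total RNA under the heterozygote label and 11.94 under the wild-type label (-0.48), and 11.15 and 11.90 in polysome RNA (-0.75, 1.69-fold lower). Its other probe set gave -0.54 and -0.56, short of 1.5-fold in both in the deposited values. Relative to the median gene the _x_at probe set of Nupr1 came to -0.66 and -0.86, past 1.5-fold in total and polysome RNA. Chac1, which degrades glutathione, was at 0.47 and 0.32, and Trib3, a pseudokinase that holds ATF4 back, at 0.39 and 0.26. Sesn2 and Ddit4, both inhibitors of the growth kinase mTORC1, were at 0.32 and 0.23 in total RNA; in polysome RNA Sesn2 was at 0.12 and Ddit4 was level.

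The transporter pair Slc7a5 and Slc3a2 encodes the light and heavy chains of a carrier of large neutral amino acids, and its genes differed in sign. Slc7a5 read 11.30 in total RNA under the heterozygote label and 10.71 under the wild-type label (0.59, just past 1.5-fold, but 0.40 relative to the median gene, 0.41 after quantile normalization and 0.36 after the loess trend), and 11.49 and 11.14 in polysome RNA (0.35). Slc3a2 was at -0.16 and -0.22. The cationic amino acid carrier Slc7a1 read between 5.77 and 6.55 and the cystine carrier Slc7a11 between 5.37 and 5.74 over the 4 arrays, too low for a fold to be read. Both heterozygote-labelled values lay above both wild-type-labelled values for Cebpb, Cebpg, Mthfd2, Psat1, Sesn2 and Slc7a5. These are 6 of 19 (31.6%), where 43.8% of all genes did. They lay below them for Nupr1, Phgdh and Shmt2, 3 of 19 (15.8%), where 20.9% of all genes did. Neither share exceeded that of all genes.

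Lists of genes around the pathway were examined as well. Of the scaffolds of the multi-synthetase complex, Aimp1, Aimp2 and Eef1e1 were at 0.10, 0.23 and 0.40 in total RNA and at 0.03, 0.02 and 0.21 in polysome RNA, all above 0 where the 6 measured complex synthetases were all below it. Relative to the median gene the synthetases stayed below 0, whereas Aimp1 in both RNAs and Aimp2 in polysome RNA turned below it. Of 8 mitochondrial synthetases on the array 6 reached the floor. Their medians were -0.05 and -0.18, or -0.24 and -0.29 relative to the median gene. Only Iars2 was at least 1.5-fold lower (-1.03 and -0.85), where 6.23% and 5.86% of all genes were. It read 6.85 under the heterozygote and 7.88 under the wild-type label in total RNA. In polysome RNA it read 7.25 and 8.10, and both heterozygote-labelled values were below the floor. Of 12 regulators of the response on the array, 11 reached the floor. The list holds eIF2 kinases, subunits of the exchange factor eIF2B and phosphatase subunits among others. None passed 1.5-fold upwards, against 7.42% of all genes in total and 2.08% in polysome RNA. Downwards none did either, against 6.23% and 5.86%. Their medians were 0.37 and 0.20, or 0.18 and 0.10 relative to the median gene. In total RNA the highest were the phosphatase subunit Ppp1r15b (0.57 and 0.52) and the endoplasmic reticulum kinase Eif2ak3 (0.51 and 0.22).

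Of a further 18 reported ATF4 targets on the array, 16 were at or above the floor. In total RNA 11 of 16 were below 0 and in polysome RNA 10, where 33.6% and 36.6% of all genes were. Their medians were -0.08 and -0.06, or -0.27 and -0.17 relative to the median gene. In both RNAs the same 4 of 16 were at least 1.5-fold lower under the heterozygote label, against 6.23% of all genes in total and 5.86% in polysome RNA. Relative to the median gene 5 were in total RNA, against 11.3% of all genes, and 4 in polysome RNA, against 8.29%. The 4 were the amino acid carriers Slc7a3 (-0.68 in total and -0.70 in polysome RNA) and Slc1a4 (-0.65 and -0.82), Aldh18a1 (-0.66 and -0.61), an enzyme of proline synthesis, and Pck2 (-0.62 and -0.69), the mitochondrial phosphoenolpyruvate carboxykinase. Slc7a3 was below the floor in the heterozygote-labelled total library. Gpt2, an alanine aminotransferase, was at least 1.5-fold higher in total RNA (0.62) and short of it in polysome RNA (0.56), and relative to the median gene it was short of it in both. The stress-induced factor Atf3 was at 0.37 in total RNA and at 1.11 in polysome RNA, from wild-type-labelled values below the floor (7.27 in total and 7.17 in polysome RNA).

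**Figure D3:**
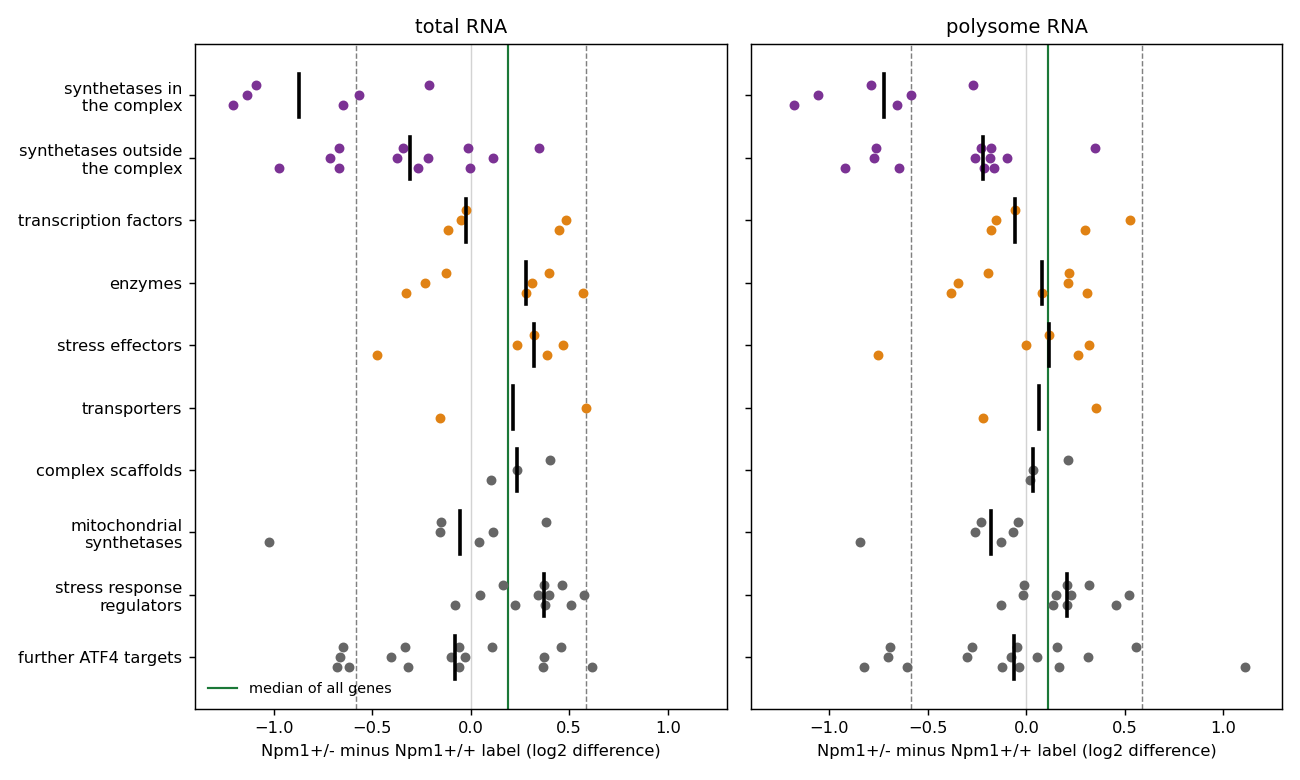
Log2 difference between the heterozygote and wild-type labels (x axis) in total RNA (left) and polysome RNA (right) for each gene that reached the floor, grouped by role, 1 array per group. Black bars are group medians, the green line is the median of all genes and dashed lines mark 1.5-fold; the complex synthetases have the lowest medians, -0.87 and -0.72, and the complex scaffolds lie at 0.23 and 0.03.

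Genes with and without the promoter match overlapped in their differences. The median over synthetases with the letters was -0.57 in total and -0.65 in polysome RNA, and over those without them -0.30 and -0.25. The 5 synthetases whose window held the letters ranged from -0.97 (Aars) to -0.01 (Yars) in total RNA, and the 6 measured ones whose window did not from -1.14 (Eprs) to -0.01 (Farsa). Among the other genes, the 4 measured ones with the letters spanned -0.48 (Nupr1) to 0.47 (Chac1), and the 13 without them -0.33 (Shmt2) to 0.57 (Psph). These medians were not tested, and the absence of the letters says only that they are not in the window.

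The fraction labels ask which RNAs are held on ribosomes. Polysome minus total differences were small and mostly positive for both gene groups. For the synthetases the median was 0.21 under the heterozygote label, where the median gene was at 0.07, and 0.24 under the wild-type label, where it was at 0.14. Of 18, 15 were above 0 under each label, against 65.1% and 75.6% of all genes. At least 1.5-fold higher was none under the heterozygote label (2.24% of all genes) and 1 under the wild-type label (3.65%), and none was at least 1.5-fold lower (1.35% and 1.56%). That 1 was Wars, which read 11.08 in polysome and 10.69 in total RNA under the heterozygote label (0.39), and 11.17 and 10.57 under the wild-type label (0.60). Its other probe sets gave 0.28 to 0.51 under the heterozygote and 0.51 to 0.58 under the wild-type label. Hars (-0.07 under both labels) was the synthetase that lay below 0 under each label.

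The other ATF4 response genes had medians of 0.25 under the heterozygote and 0.29 under the wild-type label, with 17 and 18 of 19 above 0. Of these, 2 and 3 were at least 1.5-fold higher, none passed 2-fold (0.404% and 0.529% of all genes), and relative to the median gene 1 and 2 passed 1.5-fold, against 1.59% and 1.5% of all genes. Ddit3 stood first, with 10.84 in polysome and 10.17 in total RNA under the heterozygote label (0.68, 1.60-fold higher), and 11.00 and 10.19 under the wild-type label (0.80, 1.75-fold higher). Cth read 9.92 in polysome and 9.32 in total RNA under the heterozygote label (0.60), and 9.71 and 8.92 under the wild-type label (0.78). Psph read 10.14 in polysome and 9.87 in total RNA under the heterozygote label (0.27), and 9.93 and 9.30 under the wild-type label (0.63). Ddit3 and Cth therefore passed 1.5-fold under both labels and Psph under the wild-type label. Relative to the median gene, Cth came to 0.53 under the heterozygote label and Psph to 0.48 under the wild-type label, both short of 1.5-fold, as they also were after quantile normalization and after the loess trend.

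Atf4, Atf5 and Ddit3 are textbook mRNAs with upstream reading frames. Atf4 was at 0.25 under the heterozygote and 0.26 under the wild-type label, but its _x_at probe set gave -0.25 and -0.43, so its direction depends on the probe set. Atf5 was at 0.32 and 0.38. Trib3 (0.38 and 0.51), Chac1 (0.33 and 0.48), Cebpg (0.41 and 0.37) and Ddit4 (0.29 and 0.52) also exceeded the spread between probe sets under both labels, as did Psph, Atf5 and, of the synthetases, Wars, Gars, Eprs and Vars. Of the genes in that list, only Trib3 (0.31 and 0.36), Chac1 (0.26 and 0.34) and Wars (0.32 and 0.45) still did so relative to the median gene. Nupr1 (-0.32 and -0.04) and Cebpb (-0.15 and 0.00) were lowest, but their second probe sets gave 0.07 and 0.08 for Nupr1 and 0.21 and 0.57 for Cebpb. In 10 of 19 of these genes, and 3 of 18 synthetases, both polysome values lay above both total values, where 23.7% of all genes did.

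**Figure D4:**
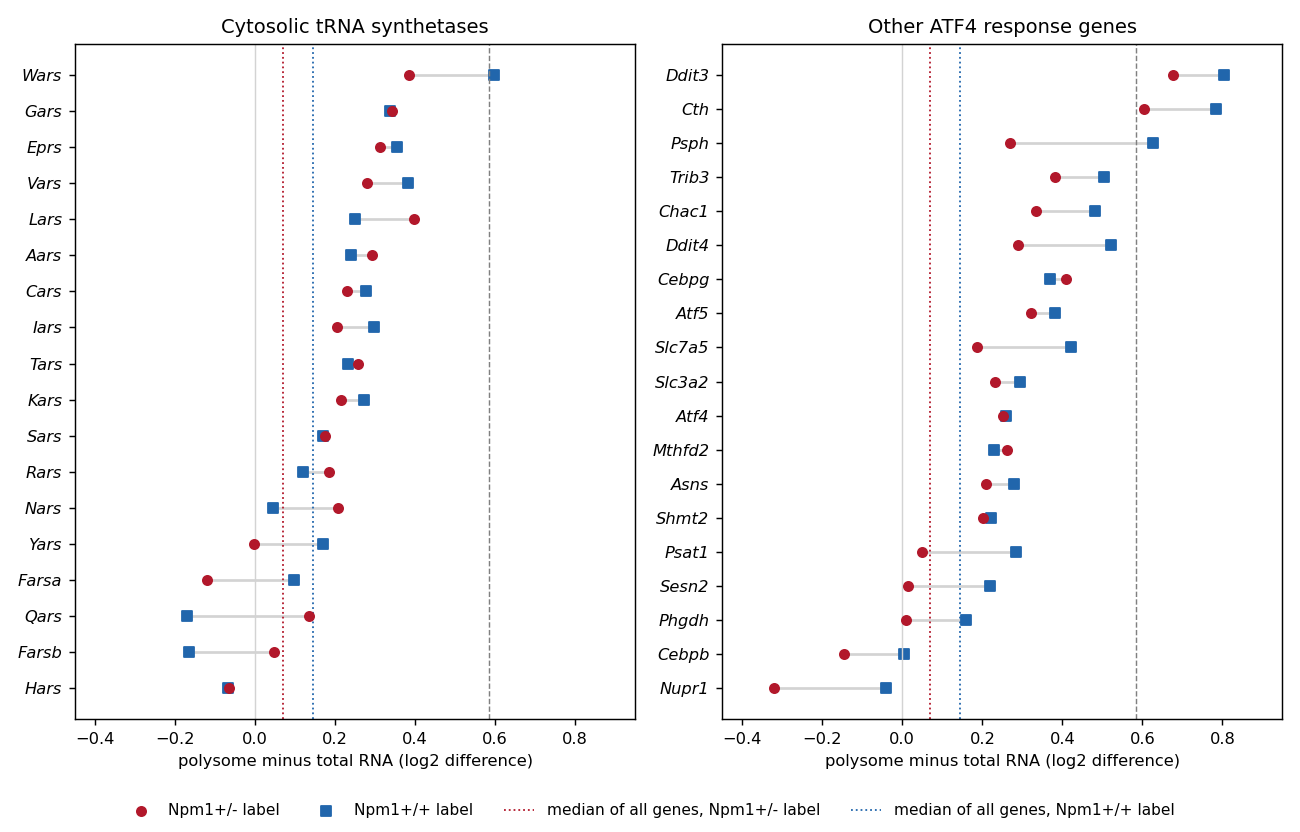
Polysome minus total RNA (log2 difference, x axis) for each synthetase (left) and other ATF4 response gene (right) under the heterozygote label (circles) and the wild-type label (squares), 1 array per value. Coloured dotted lines are the medians of all genes, 0.07 and 0.14, and the dashed line marks 1.5-fold; Ddit3 and Cth lie right of it under both labels.

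Most macrophage markers were higher in polysome RNA. Of 14 markers on the array, 9 reached the floor in the heterozygote-labelled polysome library and 3 in the total one, and 7 and 3 did under the wild-type label. Their summed linear level was 4178 in polysome and 1663 in total RNA under the heterozygote label, and 3196 and 1373 under the wild-type label. The higher level was not shared by Laptm5, Csf1r or Ptprc. Laptm5 was at 0.04 under the heterozygote and 0.14 under the wild-type label, Csf1r at -0.22 and 0.05, and Ptprc at -0.32 and -0.21. Cd14 was higher only under the wild-type label (-0.03 and 0.34 in the same order). The markers' part in the polysome differences above was not tested, and in bulk RNA fewer cells of a type and less RNA per cell cannot be told apart.

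The difference of the polysome-minus-total values between the labels, heterozygote minus wild type, was small. Its median was 0.00 over the synthetases, -0.15 over the other ATF4 response genes and -0.07 over all genes. No member passed 1.5-fold, as 0.139% of all genes did downwards and 0.167% upwards. The largest values were those of Psph (-0.36) and Qars (0.31), and the second probe set of Qars gave -0.10. Of the other ATF4 response genes 17 of 19 were below 0, where 67.1% of all genes were, but relative to the median gene 12 of 19 were.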

How the data were processed

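The deposited table holds log2 values for 22690 probe sets on 4 Affymetrix arrays. Named in the submitters' processing notes are RMA, affy 1.56.0 and R 3.4.3. RMA corrects background, normalises between arrays and summarises probes; its settings are not given in the sources used here, and array medians ranged from 7.47 to 7.59. Precision is limited by having 4 arrays.

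Of 20393 probe sets with 1 symbol, 20364 had an Entrez number in the RefSeq gene table, which changed 0 symbols; 691 with several symbols were not named. Differences of log2 values were taken in Python 3.11.15 (pandas 2.3.3, statsmodels 0.14.6) for 5 comparisons. A gene was counted from 1.5-fold (0.58 on the log2 scale) among the 7179 genes whose highest value reached the floor. With 1 array per group no p-value was computed. Counting was tested on simulated data. All 39 members are named; values on all 4 arrays are given for Atf4, Ddit3, Npm1 and members past 1.5-fold in a comparison. Pathway genes outside the member list were named where past 1.5-fold, together with the scaffolds and the 2 leading regulators, which were chosen after their values were seen. The members and lists were chosen with earlier results of these data known. As alternatives, all probe sets of a gene were averaged, and others were leaving out _x_at and _s_at probe sets, differences relative to the median gene, quantile normalization, a loess trend (span 0.3), no floor at all, a stricter floor (the percentile 75, at 9.33), and 2-fold and 3-fold thresholds.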

Additional observations from a re-analysis of the deposited data

How the results depend on the processing

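No paired analysis was possible because the labels give no replicate numbers and each group holds 1 array, so no replicate could be left out either. Under the 7 alternatives of probe set, scaling and floor, the synthetase median stayed between -0.69 and -0.44 in total RNA and between -0.56 and -0.35 in polysome RNA, and the count at least 1.5-fold lower between 8 and 10 and between 6 and 9. The median of the other ATF4 response genes ranged from 0.04 to 0.29 in total RNA and from -0.05 to 0.10 in polysome RNA, so its sign there depends on the setting, as does that of the synthetases in the difference between labels of polysome minus total (-0.02 to 0.08). At a 2-fold threshold 3 synthetases passed in total and 2 in polysome RNA, and 0 of either group in any other comparison; at 3-fold 0 passed anywhere. Between the genotype labels in polysome RNA, the single other gene, Nupr1, became 0 once _x_at and _s_at probe sets were dropped, and became 2 when the floor was lifted, which adds Slc7a1. For polysome minus total under the heterozygote label, the 2 other genes became 1 relative to the median gene, after quantile normalization and after the loess trend. Wars, the 1 synthetase under the wild-type label, became 0 under these 3 scalings, when probe sets were averaged, and when _x_at and _s_at ones were dropped. The mean of all probe sets was extended to single genes after seeing the data. With it Qars was at -0.59 and -0.41 in total and polysome RNA, and Cars at -0.47 and -0.41. Of these values only that of Qars in total RNA was past 1.5-fold. The cause of these changes was not tested beyond the change of probe sets itself. No detection calls were used, and the level alone stands in for signal over background.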

Other observations

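Some probe sets not used in the comparisons stood apart from the brighter one of their gene. The dimmer Trib3 probe set, of the _x_at kind, read 9.37 in total RNA under the heterozygote label and 8.60 under the wild-type label (0.76), and 10.21 and 9.88 in polysome RNA (0.34). Its polysome minus total difference was 0.85 under the heterozygote label and 1.27 under the wild-type label, and it was the only member probe set with a 2-fold difference between the fraction labels. The dimmer Sesn2 probe set likewise gave 0.39 under the heterozygote and 0.74 under the wild-type label, where the brighter one gave 0.01 and 0.22. The tRNA export receptor gene Xpot, from the list of further ATF4 targets, was at 0.65 under the heterozygote and 0.71 under the wild-type label, and the carrier Slc7a3 at 0.60 and 0.62, each past 1.5-fold under both labels. Relative to the median gene neither passed it under either label, and the heterozygote-labelled total value of Slc7a3 was below the floor. A pair of probe sets shared by Phgdh and a second gene symbol were left unnamed.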
